A study of Mus musculus with 7 samples.

Results

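Adrenergic receptors are the G protein-coupled receptors for noradrenaline and adrenaline. Transcripts of 8 of their genes were examined in primary oligodendrocyte precursor cells (OPCs) of the mouse, the dividing glia from which myelinating oligodendrocytes form. The genes were Adra1a, Adra1b, Adra1d, Adra2a, Adra2b, Adra2c, Adrb1 and Adrb3, taken by symbol from the 48795 gene identifiers of the deposited count table, and other receptors of noradrenaline are not described here. All libraries came from wild-type cells of the CD-1 strain, isolated between postnatal days 4 and 7 from as many female as male pups. The 4 control libraries were untreated, and the 3 others had 20 µM phenylephrine (PE), a drug that activates α1 receptors, for 1 hour. Controls carry the replicate numbers 1 to 4 and PE libraries the numbers 2 to 4, so control 1 has no treated partner. In the titles the libraries of 1 number also share a code. The series asks how noradrenaline acts on OPCs. The transcripts give the levels of these 8 genes in the culture, not the receptor protein or the cells that carry it.

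Noradrenaline released from neurons of the locus coeruleus reaches OPCs and astrocytes in the cortex during arousal. α1 receptors couple to Gq and phospholipase C and raise cytosolic calcium. α2 receptors couple to Gi and lower cyclic AMP, and β receptors couple to Gs and raise it. The receptor a cell carries therefore sets which second messenger noradrenaline changes.

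The subtypes are related but distinct in sequence, which bears on whether short reads can be told apart. Over the coding sequences in GENCODE M21 on GRCm38, the identity of the 28 pairs of the 8 genes ran from 44.9% (Adra2b and Adrb3) to 64.3% (Adra2a and Adra2c). The longest run of identical bases between any 2 members, over all their annotated transcripts, was 30 bases, between Adrb1 and Adrb3. Among the α1 genes it was 20 bases. The most alike 60-base stretch of the 3 α1 receptors is shown here 5′ to 3′ on the coding strand, with capitals for the 43 bases that all 3 share. It lies within 1 exon of each gene, at chr14:66637868-66637927 on the plus strand for Adra1a, at chr11:43835682-43835741 on the minus strand for Adra1b and at chr2:131561627-131561686 on the minus strand for Adra1d.
Adra1a: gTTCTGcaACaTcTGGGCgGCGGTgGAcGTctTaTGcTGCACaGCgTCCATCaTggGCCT
Adra1b: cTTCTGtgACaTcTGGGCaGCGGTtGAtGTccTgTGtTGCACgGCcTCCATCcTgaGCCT
Adra1d: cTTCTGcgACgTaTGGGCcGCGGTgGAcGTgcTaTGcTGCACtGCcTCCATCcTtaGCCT
Even here the subtypes differ at many single bases. Adra1a, Adra1b and Adra1d each have 2 coding exons, while the coding sequences of Adra2a, Adra2b, Adra2c and Adrb1 lie in 1 exon.

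The libraries held 12837463 to 17962339 counted reads. At that depth 3 counts, used here as the detection floor, correspond to 0.17 to 0.238 CPM (the usual read count scaled to a common library size, here after TMM adjustment). Of the OPC markers, Ptprz1 was at 2580 ± 524 CPM and Gpr17 at 2370 ± 1880 CPM in control (SD, n = 4). The 10 markers summed to between 10200 and 12400 CPM in the 7 libraries. That sum hides opposite shifts between numbers. In controls 1 to 4 Gpr17 stood at 4587, 3268, 919.3 and 691.6 CPM, and Pdgfra at 1343, 2024, 2213 and 2256 CPM. Maturing oligodendrocyte markers, among them Cnp at 837 ± 484 CPM in control (SD, n = 4), summed to between 1320 and 3900 CPM. Astrocyte markers, led by Slc1a3 and Gfap, summed to between 1080 and 1620 CPM, so the receptor values include whatever such cells contributed. The sums were 18.8 to 38.7 CPM for microglia (Csf1r and C1qa highest), 47 to 75.3 CPM for neurons (Tubb3 and Snap25), 11.3 to 47.9 CPM for endothelium (Kdr and Cdh5) and 55.6 to 122 CPM for mural cells and fibroblasts (Col1a1 and Dcn). None of these markers was at 0 in every library. Of the 8 microglial markers 3 (P2ry12, Tmem119 and Aif1), and of the 8 neuronal markers 2 (Slc17a7 and Slc17a6), averaged below 1 CPM in both groups. Others on these lists were higher in control, such as Cx3cr1 (4.87 CPM) and Trem2 (2.88), and the neuronal Syt1 (5.26) and Gad2 (3.4).

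The receptor transcripts were scarce. Together the 8 genes gave between 191 (control 1) and 349 reads (PE 2) per library, and their mean sum was 17.1 ± 5.62 CPM in control (SD, n = 4) and 19.2 ± 4.89 CPM after PE (SD, n = 3). 5 of the 8, Adra1a, Adra1b, Adra1d, Adra2a and Adrb1, passed the filter on low counts, and each had more than 3 reads in every library. Adra2b, Adra2c and Adrb3 did not pass it. Per kilobase of annotated exon (RPKM, which allows levels of different genes to be compared), the means of the 5 genes in control lay between 0.209 and 1.63. The median of the 15900 genes that passed the filter and had an annotated length was 6.17 RPKM, and from the top of that ranking the 5 genes lay between rank 12112 (76.2% of the way down) for Adra1d and rank 15490 (97.4%) for Adra1a.

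**Figure D1:**
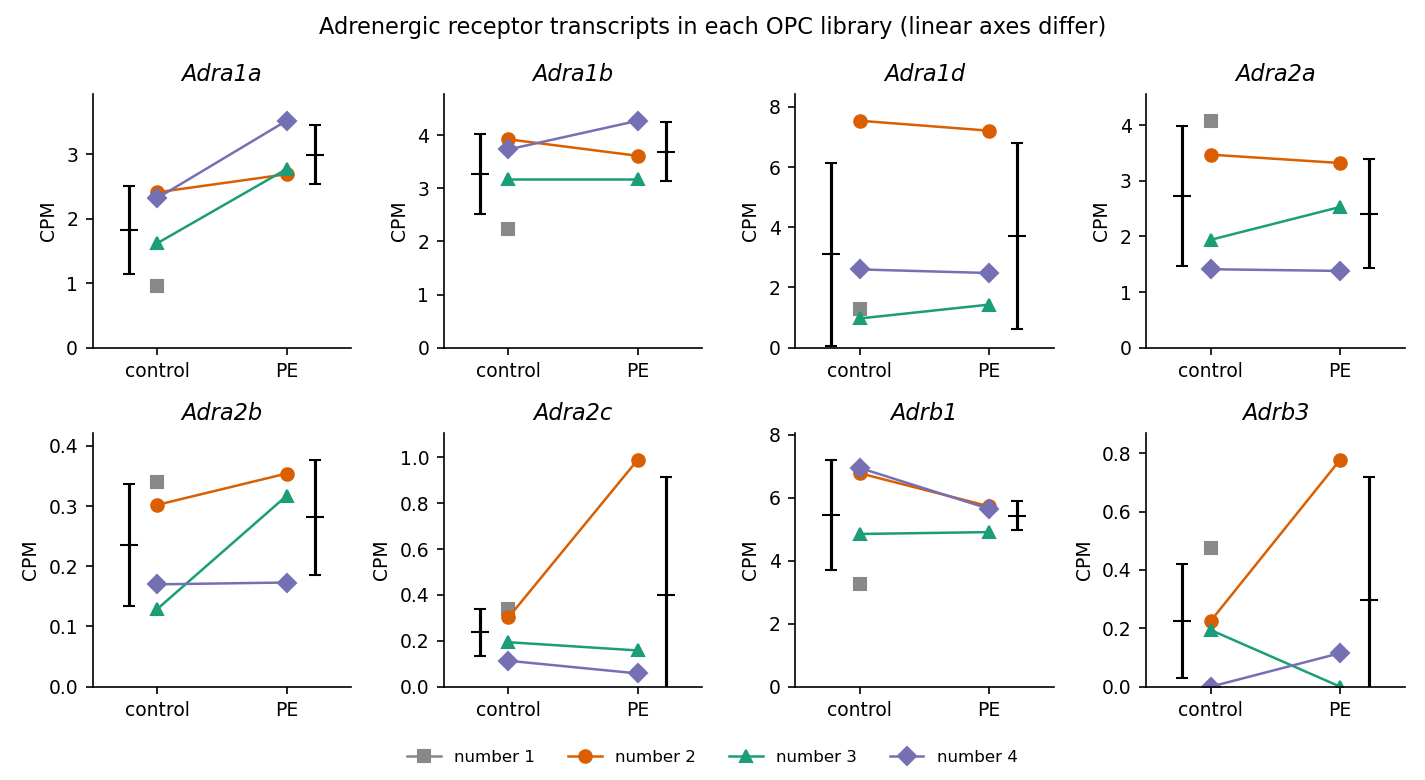
CPM of each receptor gene (vertical axis, linear, a separate scale per gene) in the 4 control and 3 PE libraries, with lines joining the libraries of 1 replicate number and black bars for the mean ± SD of each group, clipped at 0. Adra1d runs from 0.97 to 7.54 CPM, at 7.54 and 7.21 CPM in the libraries of number 2 and 0.97 and 1.43 CPM in those of number 3, and for Adra1a all PE libraries lie above all controls.

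Adra1d, one of the Gq-coupled α1 receptors, varied most between libraries among the 5 tested genes. Its counts were 19, 100, 15 and 46 in controls 1 to 4 and 102, 18 and 43 in PE 2 to 4. In CPM these were 1.29, 7.54, 0.97 and 2.6 in control and 7.21, 1.43 and 2.48 after PE. Number 2 was high, number 4 was intermediate and numbers 1 and 3 were low, whether or not PE had been added. The highest control lay 7.77-fold above the lowest, and the variance between controls was 43.3 times the counting variance. In bulk cultures, fewer cells carrying a transcript and less transcript per cell cannot be told apart. The gene (ENSMUSG00000027335) lies on the minus strand of chromosome 2 from 131545850 to 131562283. It overlaps an exon of Gm14285, which had no reads in the 7 libraries. How reads over the shared bases were counted is not known, so some reads of Adra1d may have been left out there.

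Adra1b, the α1 subtype with the steadiest level, gave 33, 52, 49 and 66 counts in controls 1 to 4 and 51, 40 and 74 in PE 2 to 4. These were 2.24, 3.92, 3.17 and 3.73 CPM in control and 3.61, 3.17 and 4.27 CPM after PE. Control 1 was the lowest library and PE 4 the highest, and the 2 groups overlapped. Its variance between controls was 2.55 times the counting variance. The gene (ENSMUSG00000050541) lies on the minus strand of chromosome 11 from 43774606 to 43901210 and overlaps no other annotated gene.

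Adra1a, the α1 subtype best known for contracting smooth muscle, gave 14, 32, 25 and 41 counts in controls 1 to 4 and 38, 35 and 61 in PE 2 to 4. In CPM these were 0.951, 2.41, 1.62 and 2.32 in control and 2.69, 2.77 and 3.52 after PE. The lowest PE library lay above the highest control. The gene (ENSMUSG00000045875) spans chromosome 14 from 66635251 to 66771168 on the plus strand, with 6 annotated transcripts. Their exons join to 8728 bases while the longest transcript has 4282, so its level per length depends on which is used, at 0.209 ± 0.0781 RPKM with the joined exons and 0.426 ± 0.159 with the longest transcript (SD, n = 4 controls).

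Among α1 reads the make-up changed from number to number. Adra1d took 54.3% of α1 reads in control 2 (100 of 184, exact 95% binomial interval 46.9% to 61.7%) and 53.4% in PE 2. It took 16.9% in control 3 (15 of 89, interval 9.75% to 26.3%) and 19.4% in PE 3. Adra1b held the largest part of α1 reads in control 1 (33 of 66), control 3 (55.1%), control 4 (43.1%), PE 3 (43.0%) and PE 4 (41.6%), and Adra1d did in both libraries of number 2. Such intervals cover counting error only, and may be too narrow even for that, since amplified reads are not independent molecules. Raw reads favour genes with longer exons, and the largest part depended on this. Per kilobase of annotated exon, Adra1b led only in control 3 (57.4% of the α1 sum) and PE 3 (46.7%). By that measure Adra1d led in control 1 (46.8% against 45.7% for Adra1b), control 4 and PE 4 (44.0% against 42.5%). It also led in both libraries of number 2 (73.4% in each). Summed over the 3 genes, α1 transcripts stood at 4.49, 13.9, 5.76 and 8.65 CPM in controls 1 to 4 and at 13.5, 7.36 and 10.3 CPM in PE 2 to 4. Number 2 was again the highest in both groups.

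Of the α2 genes, Adra2a supplied most reads. It encodes the receptor that restrains noradrenaline release as an autoreceptor in neurons. It gave 60, 46, 30 and 25 counts in controls 1 to 4 and 47, 32 and 24 in PE 2 to 4. These were 4.08, 3.47, 1.94 and 1.41 CPM in control and 3.32, 2.53 and 1.38 CPM after PE. Numbers 1 and 2 were high, 3 was lower and 4 the lowest, in control and after PE alike. Adra2a made up 83.3% to 85.7% of α2 reads in the controls, and 71.2% (47 of 66, interval 58.7% to 81.7%), 84.2% and 85.7% in PE 2 to 4. It lies on chromosome 19 from 54044151 to 54048982 on the plus strand (ENSMUSG00000033717) and overlaps no other gene.

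Adra2b and Adra2c, the other α2 subtypes, were near the floor. Adra2b (chromosome 2, 127363208 to 127367221) had 5, 4, 2 and 3 counts in controls 1 to 4 and 5, 4 and 3 in PE 2 to 4. Adra2c (chromosome 5, 35278319 to 35281763) had 5, 4, 3 and 2 in control and 14, 2 and 1 after PE. Over all controls each had 14 reads, or 0.229 CPM, with an exact 95% Poisson interval that ended at 0.384 CPM. PE 2 stood above the other libraries for Adra2c, at 0.99 CPM (0.541 to 1.66). Its interval overlapped that of control 2 (0.0822 to 0.772), and such overlap is not a test of whether the 2 differ.

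Adrb1, the β1 receptor that couples to Gs, gave the most reads of the 8 genes. Its counts were 48, 90, 75 and 123 in controls 1 to 4 and 81, 62 and 98 in PE 2 to 4. In CPM these were 3.26, 6.78, 4.85 and 6.95 in control and 5.73, 4.91 and 5.65 after PE. Control 1 was the lowest library, and the PE libraries lay within the range of the controls. The variance between controls was 8.46 times the counting variance. The gene (ENSMUSG00000035283) lies on chromosome 19 from 56722199 to 56733113 on the plus strand and overlaps no other gene. Adrb3, the β3 receptor known from fat cells (chromosome 8, 27225776 to 27250616), had 7, 3, 3 and 0 counts in control and 11, 0 and 2 after PE. It overlaps an exon of Gm45470 on the opposite strand, which had 3 reads over the 7 libraries, and here too the counting of shared bases is not known. In the libraries with 0 reads, 3 counts would be 0.17 CPM in control 4 and 0.238 CPM in PE 3. PE 2 was the highest library for Adrb3 as for Adra2c, at 0.778 CPM (exact Poisson interval 0.388 to 1.39). The interval overlaps that of control 2, at 0.226 CPM (0.0466 to 0.661), and here too overlap is not a test of a difference. The marker sums of every cell type listed above other than maturing oligodendrocytes were also highest in PE 2, such as the endothelial one at 47.89 CPM against 35.73 CPM in control 2, and their part in these counts was not tested.

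Ordered by mean RPKM in control, the genes ran from Adra1d (1.63 ± 1.6, SD, n = 4) and Adrb1 (1.62 ± 0.517) through Adra1b (0.966 ± 0.223) and Adra2a (0.564 ± 0.259) to Adra1a (0.209 ± 0.0781). Adra2b, Adra2c and Adrb3 followed at 0.0586, 0.0688 and 0.0663. The mean of Adra1d rests on control 2, since its mean in control was 3.1 CPM with that library and 1.62 CPM without it. It exceeded Adrb1 in 1 of 4 controls, and the mean log2 ratio of their RPKM was -0.40. Adrb1 lay above Adra1b in 4 of 4 controls and in 7 of 7 libraries, by 0.71 ± 0.163 on the log2 scale (SD, n = 4 controls). Adra1b lay above Adra2a in 3 of 4 controls and Adra2a above Adra1a in 4 of 4. An exact two-sided sign-flip permutation test over 4 controls gave adjusted p of 0.5, 0.25, 0.333 and 0.25 over the 4 neighbouring pairs in that order. With 4 controls it cannot pass 0.05, so these values do not show whether neighbours differ. With the longest transcript as length, Adrb1 came first, and the step from Adra2a to Adra1a shrank from 1.4 to 0.37 and held in 3 of 4 controls.

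As a share of the 8 genes per length, Adrb1 made up 26.9%, 24.0%, 39.7% and 39.8% in controls 1 to 4 and 20.8%, 35.4% and 33.3% in PE 2 to 4. Adra1d made up 19.0%, 47.5%, 14.1% and 26.5% in control and 46.5%, 18.3% and 26.0% after PE. Adra2a was at 23.5% in control 1 and between 5.67% and 12.8% in the other 6 libraries. In number 2 Adra1d was the largest part, and in the other numbers Adrb1 was. Adra1a held 3.04%, 3.31%, 5.12% and 5.14% in control and 3.77%, 7.73% and 8.03% after PE. Its share was larger after PE in 3 of 3 pairs, by 0.466, 2.61 and 2.88 percentage points, and that of Adrb1 was smaller in 3 of 3, with changes of -3.24, -4.32 and -6.56 points. These shares depend on the length used, and the mean share of Adra1a in control was 4.15% with joined exons, 7.69% with the longest transcript and 10.7% of raw reads. Shares add up to a fixed total, so a larger share of one gene lowers the others. Between the groups, the exact two-sided permutation test gave p = 0.171 for the Adra1a share and p = 0.686 for the Adrb1 share (adjusted over the 5 shares, 0.857 and 0.971). With 4 libraries against 3 its smallest p is 0.0571, and it takes no account of the pairs. A sign-flip permutation test over the 3 pairs cannot go below an exact p of 0.25, so the changes within pairs are given without a test. The other shares gave exact permutation p of 0.971 (Adra1b), 0.857 (Adra1d) and 0.686 (Adra2a).

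**Figure D2:**
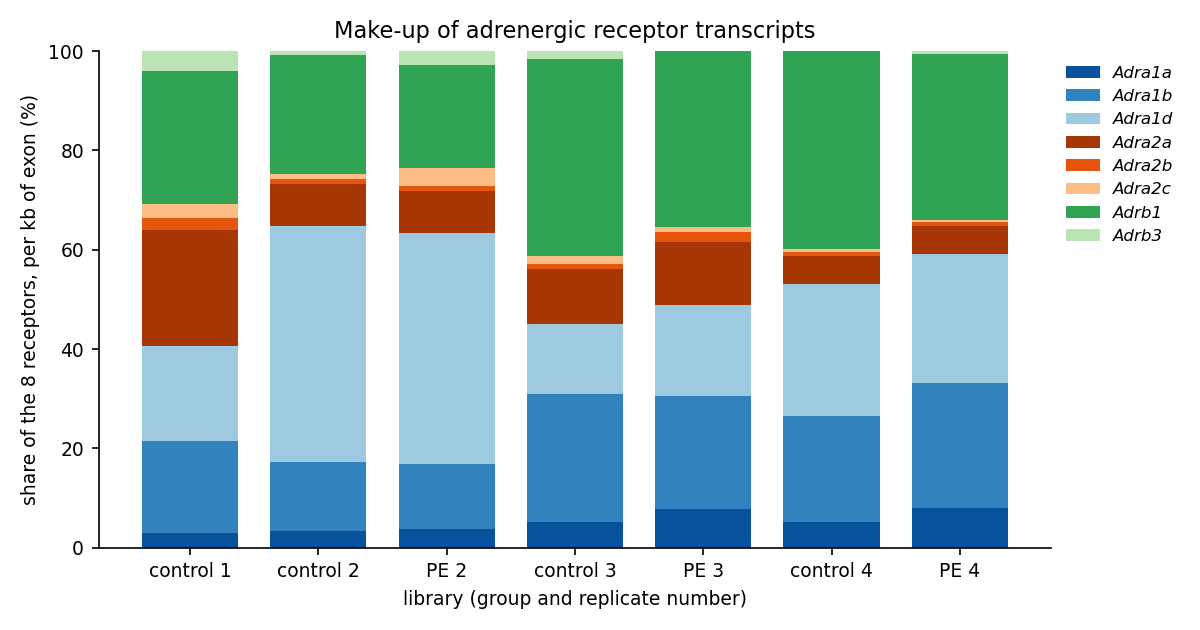
Share of each gene among the 8 receptor genes, in percent of their summed RPKM (vertical axis), in each library, with the libraries of 1 number side by side. Adra1d takes 47.5% and 46.5% in the libraries of number 2, and Adrb1 the largest part in the other libraries.

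After 1 hour of PE, no receptor gene passed the test. Of the 5 genes tested, 0 were called without the pairs, where 0% of the 15934 tested genes were (edgeR quasi-likelihood test, Benjamini-Hochberg adjusted p under 0.05). Within pairs, which are PE and control libraries of 1 number, 0 were called, where 0.54% of tested genes were (0.502% higher after PE). At an unadjusted p under 0.05, 0 of the 5 stood without pairs, where 0.446% of tested genes did, and 1 of the 5, Adra1a, within pairs, where 5.76% did. Adra1a had the largest fitted change. Within pairs it was 1.42-fold in edgeR (95% interval 1.02 to 1.98, log2 change 0.51 ± 0.22 SE). DESeq2 gave 0.51 ± 0.42 SE within pairs, so the width of this interval depends on the method. The log2 ratios were 0.16, 0.78 and 0.60 in pairs 2, 3 and 4. Adra1a did not pass, with edgeR adjusted p = 0.825 within pairs and adjusted p = 1 without them. Its log2 change without the pairs was 0.71 ± 0.34. It was higher in 3 of 3 pairs, as were 11.9% of tested genes, and 13.5% were lower in all pairs. It was also the only tested receptor whose PE and control libraries did not overlap, a pattern found in 1.26% of tested genes.

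The other tested receptors had smaller fitted changes. Within pairs the fold was 1.03 for Adra1b (95% interval 0.782 to 1.35), 1.02 for Adra1d (0.758 to 1.37), 1.06 for Adra2a (0.759 to 1.49) and 0.877 for Adrb1 (0.702 to 1.1). The intervals leave room for changes of up to about those bounds in either direction. The edgeR adjusted p within pairs was 1, 1, 0.997 and 0.978 in that order. For Adra1d the ratio in pair 3 was 0.56 on the log2 scale, from 15 and 18 reads, against -0.06 and -0.07 in pairs 2 and 4. Adrb1 was lower in pairs 2 and 4 (-0.24 and -0.30) and level in pair 3 (0.02). Without the pairs the log2 changes were 0.17 ± 0.26 for Adra1b, 0.27 ± 0.80 for Adra1d, -0.17 ± 0.46 for Adra2a and -0.01 ± 0.29 for Adrb1, and the direction of Adra2a differs between the 2 fits. With no filter on low counts, Adra2b had a log2 change of 0.46 ± 0.89, Adra2c of 0.74 ± 0.83 and Adrb3 of 0.94 ± 1.00 within pairs (edgeR adjusted p = 1 for each).

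**Figure D3:**
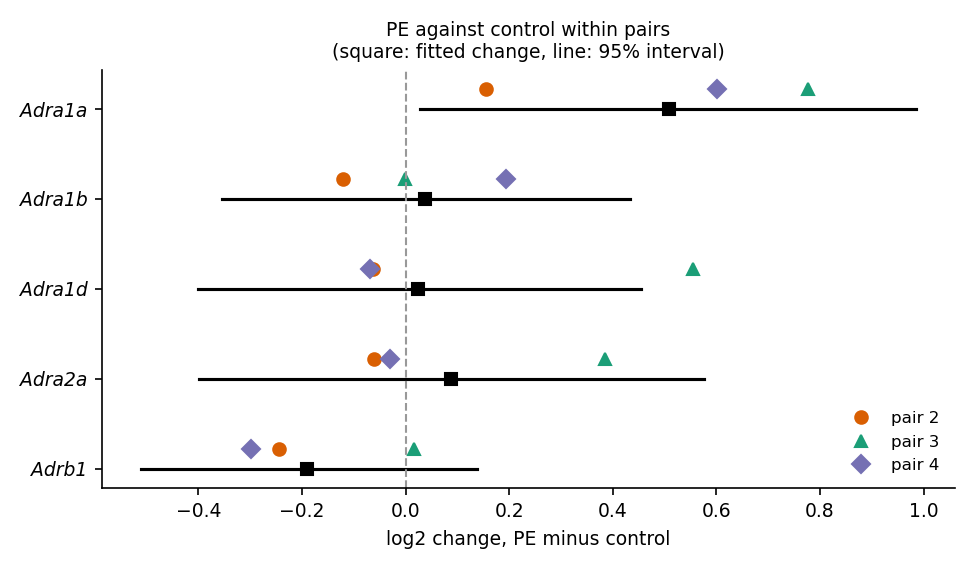
Change of the 5 tested receptor genes after PE on the log2 scale (horizontal axis). Black squares and lines are the fitted change and its 95% interval within pairs, and coloured points are the ratios of pairs 2, 3 and 4. In this edgeR fit the interval for Adra1a runs from 1.02-fold to 1.98-fold, and the other 4 include 1.

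The levels of some receptors also differed between replicate numbers. A test of the number, adjusted for treatment, called 3 of the 5 tested receptors, where 68.3% of all tested genes were called, so the share of receptors was close to the background (edgeR with Benjamini-Hochberg adjustment, chosen after the levels had been seen). The receptors called were Adra1d (adjusted p = 7.27e-07), Adra2a (adjusted p = 0.00136) and Adrb1 (adjusted p = 0.0087), and Adra1a (adjusted p = 0.0629) and Adra1b (adjusted p = 0.119) were not. The test measures the numbers against the spread between the 2 libraries of a number, which may share a culture. Without number 1 the Adrb1 call was lost (adjusted p = 0.15), while Adra1d (adjusted p = 7.51e-07) and Adra2a (adjusted p = 0.00331) were still called. Adra1a was called when number 2 or number 3 was left out (adjusted p = 0.0342 and adjusted p = 0.0409), and with no filter on low counts (adjusted p = 0.0304). The fitted biological coefficient of variation of Adra1d was 0.712 without the numbers in the model and 0.0852 with them.

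Marker sums of other cells also differed between numbers. The mural and fibroblast markers stood at 76.99, 113.4, 56.92 and 82.65 CPM in controls 1 to 4 and at 121.8, 55.58 and 61.18 CPM in PE 2 to 4, with number 2 highest, as for Adra1d. Microglial markers stood at 18.82, 37.99, 23.41 and 35.16 CPM in controls 1 to 4, lower in numbers 1 and 3, as Adra1d was. Control 2 was also the highest control for the astrocyte (1595 CPM), neuron (74.78), endothelial (35.73) and OPC sums (12260). A high number 2 was thus not particular to the mural or microglial markers. The maturing oligodendrocyte markers stood at 3902, 2163, 2074 and 1324 CPM in controls 1 to 4 and at 2181, 2100 and 1364 CPM in PE 2 to 4, in the same order as Adra2a. Their part in the receptor levels was not tested.

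The genes with the most similar profiles were sought among 13702 tested genes, as those with the smallest root-mean-square (RMS) difference in mean-centred log2 CPM over the 7 libraries. For Adra1d the nearest were the neurofilament gene Nefl (0.333) and the cytokine gene Il33 (0.349), while the RMS spread of Adra1d itself was 1.035. For Adra2a (spread 0.553) they were the orphan receptor gene Gprc5a (0.062), Ccdc92b (0.102) and the immunoproteasome gene Psmb9 (0.103). The profile of Adra1d was less closely matched than that of Adra2a. For Adra1a (spread 0.535) they were the orphan nuclear receptor gene Nr2e1 (0.118), the kinase gene Dclk1 (0.168) and the early response gene Ier3 (0.174). For Adra1b (spread 0.27) they were the kinetochore gene Spc25 (0.054), Hexim2 (0.08) and the GABA-B receptor gene Gabbr1 (0.08). For Adrb1 (spread 0.333) they were the actin-binding protein gene Dmtn (0.097), the glutamate transporter gene Slc1a2 (0.1), which is on the astrocyte list, and Pnmal2 (0.106). The 7 libraries are not independent points, since the PE and control libraries of a number may share a culture. The named genes were the closest among 13702 candidates, and how close the nearest would be by chance was not tested. Counting error was not allowed for either, and Gprc5a and Psmb9 had a lower mean CPM in control than Adra2a itself. The small differences therefore do not show that these genes are regulated together. For Adra1a the profile also differed within numbers 3 and 4, from -0.402 in control 3 to 0.328 in PE 3 and from 0.084 in control 4 to 0.658 in PE 4. It differed less in number 2, from 0.138 in control 2 to 0.286 in PE 2.

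**Figure D4:**
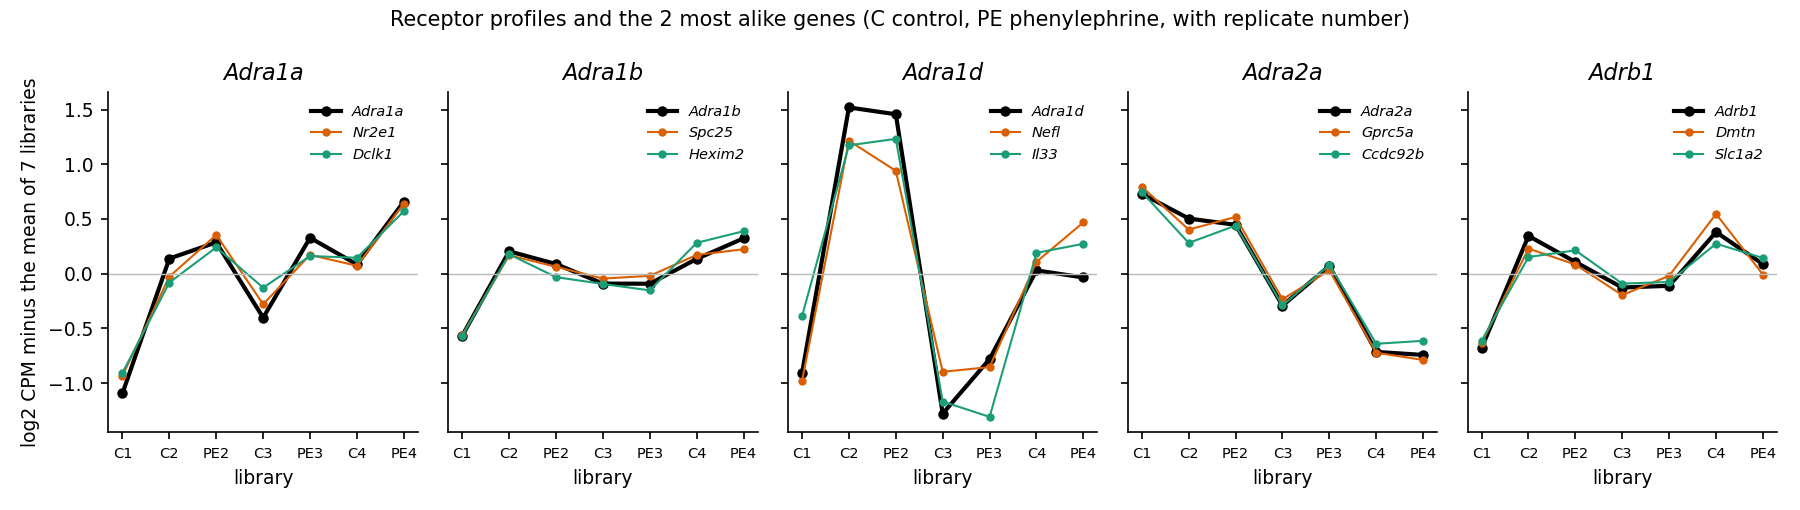
Log2 CPM minus the mean of the 7 libraries (vertical axis) for each tested receptor gene (black) and its 2 most alike genes (coloured), in the 7 libraries ordered by replicate number. Adra1d and its 2 genes are high in number 2 and low in number 3, and Adra2a is highest in number 1 and lowest in number 4.

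The genes that act downstream of the receptors, and those that make or remove noradrenaline, were described by lists. In the Gq list (14 of 15 genes tested) the genes with the highest CPM were the protein kinase C gene Prkcb (169 CPM in control) and the α subunit genes Gna11 (164) and Gnaq (158). In the Gi list (5 of 5) they were Gnai2 (470), Gnao1 (257) and Gnai3 (179). In the list of Gs, adenylyl cyclases and protein kinase A (18 of 19) they were Gnas (1110), Prkar1a (554) and Prkar2a (198). Receptor kinases and arrestins, which switch receptors off (7 of 8), were led by Arrb1 (129), Grk2 (106) and Grk6 (89.8). All 3 coupling pathways of the receptors thus had transcripts far above the detection floor.

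For noradrenaline itself (7 of 14 tested), the gene of the degrading enzyme Maoa was at 91.3 CPM and the low-affinity transporter gene Slc29a4 at 42.0 CPM in control. Dbh, which makes noradrenaline from dopamine, and Pnmt, which makes adrenaline, had 0 reads in all libraries, so up to 3 counts per library, or 0.17 to 0.238 CPM, would go undetected. The noradrenaline transporter gene Slc6a2 averaged 0.123 CPM in control. Of 25 receptors for other monoamines and acetylcholine, 8 were tested. Chrm1 (4.75 ± 2.44 CPM, SD, n = 4 controls), Hrh1 (4.65 ± 3.51) and Chrm2 (1.98 ± 1.32) had the highest CPM.

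None of these genes passed the test after PE. In each of the 6 lists 0 genes were called higher and 0 lower in edgeR, with or without the pairs. Of all tested genes 0% were called without the pairs and 0.54% within them, so 0 calls in such short lists are close to the background. A gene that was not called is not shown to be unchanged. Htr1b, a serotonin receptor gene chosen after its values were seen, had a log2 change of -0.77 ± 0.34 within pairs (edgeR adjusted p = 0.811). The median log2 change within pairs was 0.03 for the Gq list, -0.03 for the Gi list, -0.01 for the Gs list, -0.01 for kinases and arrestins, 0.03 for the noradrenaline list and -0.04 for the other receptors. It was 0.04 for the 5 tested adrenergic receptors and -0.00 for all tested genes.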

How the data were processed

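The authors deposited raw read counts, as whole numbers for each Ensembl gene ID in each of the 7 libraries. The submitters' processing notes list STAR, HTSeq and bcl2fastq 2.17, and the builds mm10 and GRCm38. Which annotation and strand setting were used is not given in the sources used here. The library kits named by the labels' protocols (SMART-Seq v4 and Nextera XT) do not mark strand. The same protocols mention tamoxifen, virus and immunoprecipitation steps whose use here is not known. Whether replicates are separate cultures is not stated, so p-values cover only how far these samples differ from each other, and that spread may be technical. Libraries of 1 group differed beyond counting noise, with a chi-square of 11.1 to 92.9 per degree of freedom.

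The counts were tested with edgeR 4.0.16 (R 4.3.3) with TMM, filterByExpr (minimum count 10), which left 15934 genes, and the two-sided quasi-likelihood F test, with and without the replicate number as a block. Same-numbered libraries deviated together (correlation of deviations 0.736, 0.674 and 0.789, each above 0.1), so the numbers were taken as pairs. Libraries of different numbers reached 0.666 (PE 2 with control 1), 0.364 (PE 4 with control 3) and 0.218 (PE 3 with control 4), and the other such pairings were below 0. Control 1 carries no weight in the blocked effect. A prior count of 2 entered log2 CPM, and F and the fold change gave each standard error. RPKM used joined GENCODE M21 exons. Coding sequences were aligned with mafft 7.526. The fits were also run on counts simulated from the means and spread of the blocked edgeR fit. Such counts cannot check that spread or the pairing, and their outcome is not reported here.

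The members and lists were chosen with earlier results of these data known. Named were all members, the 3 genes of highest control CPM per pathway list (2 per marker list), called list genes and the 3 most alike genes per tested member. A few genes this rule names are not reported here. Other list genes are named as those near the floor or behind a statement. The tests of replicate number were added after the levels had been seen.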

Additional observations from a re-analysis of the deposited data

Results flagged for a closer look

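Among 16 sets of 4 control values checked for a library far from the others, 1 was past the limit, and about 1 in 20 such sets is past it by chance. The share of Adra2b among the 8 receptor genes per length was 2.36% in control 1, where the gene had 5 reads, and between 0.819% and 0.899% in the other controls, where it had 2 to 4.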

How the results depend on the processing

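In none of the fits tried was a receptor gene called after PE. With the replicate block 86 of all tested genes were called, against 0 without it, and a DESeq2 1.42.0 Wald test without the pairs called 2. Within pairs DESeq2 called 33 genes, edgeR without a filter on low counts (chosen after seeing the data) 194, and leaving out pair 2, 3 or 4 gave 253, 52 and 254, with 0 receptors each. The log2 change of Adra1a was above 0 in every fit, from 0.40 to 0.87, with adjusted p from 0.34 to 1. Its standard error within pairs was 0.223 in edgeR, 0.226 in limma-voom and 0.42 in DESeq2. The standard errors of the other tested receptors were also larger in DESeq2, such as 0.344 against 0.184 in edgeR for Adra1b. Fitted changes near 0 turned sign, and the cause was not tested. Adra2a went from -0.174 to 0.088 with the replicate block, and in the fit without pairs ranged from -0.48 (without PE 2) to 0.112 (without PE 4) and was 0.095 without control 1. Adrb1 went from -0.008 to 0.051 with limma-voom, and ranged from -0.183 to 0.132 when 1 library was left out. Adra1d ranged from -0.635 (without PE 2) to 1.188 (without control 2). Within pairs, leaving out 1 pair gave -0.065 to 0.128 for Adra1d, -0.049 to 0.201 for Adra2a and -0.065 to 0.119 for Adra1b. The control share of Adra1a among the 8 genes was 4.15% per joined exon length, 7.69% with the longest transcript and 10.7% of raw counts. Without control 2 the mean of Adra1d in control fell from 3.1 to 1.62 CPM. The number of receptors called between replicate numbers was 2 to 4 when 1 number was left out. The 5 tested genes had 14 to 123 reads per library, which limits the precision of each level, and how far depth sets the width of the fitted intervals was not tested.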
